A study of Mus musculus with 8 samples.

Results

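The genes of MHC class II presentation were followed in macrophages derived in vitro from mouse bone marrow (BMDMs). They were 7 genes chosen by name, H2-Aa, H2-Ab1, H2-Eb1, H2-DMa, H2-DMb1, Cd74 and Ciita, of 50615 genes with a row in the count table, and all 7 were among the 17625 genes that had enough counts to be tested. The study asked how the loss of nuclear receptor coactivator 6 (NCOA6) changes macrophages and their response to an inflammasome stimulus. RNA was sequenced from BMDMs of C57BL/6 mice with a floxed Ncoa6 gene and no Cre (Ncoa6 fl/fl, labelled WT and called fl/fl here) and of Ncoa6 fl/fl LysM CRE mice (called Ncoa6-KO). Cre is made from the lysozyme 2 locus in the second genotype, so the deletion is limited to myeloid cells, and cells of both genotypes carry the floxed allele. Cultures in both genotypes received 20 ng/ml of M-CSF over 6 days. They then stayed in medium or were given 100 ng/ml of LPS for 4 h followed by 2 h of monosodium urate (MSU) crystals, 200 µg/ml. The 4 groups comprised 2 libraries each, made from different mice within a group. Whether a medium and a stimulated library came from the same mouse was not given in the sources used here, nor was the age of the mice.

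MHC class II molecules are pairs of an alpha and a beta chain that present peptides from endosomes to CD4+ T cells. In the mouse, H2-Aa and H2-Ab1 encode the chains of I-A, and H2-Eb1 encodes the beta chain of I-E, whose alpha chain gene is defective in C57BL/6 mice. Cd74 encodes the invariant chain, which fills the groove of the new dimer and leads it to endosomes, and H2-DMa and H2-DMb1 encode the DM dimer, which exchanges the last fragment of the invariant chain for peptide. Ciita encodes the class II transactivator, a coactivator that binds no DNA itself and joins RFX, CREB and NF-Y proteins on the X and Y boxes of class II promoters. In macrophages the pathway is best known as a target of interferon gamma, which induces Ciita with the help of the transcription factor IRF1.

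The promoters of H2-Aa, H2-Eb1 and H2-DMb1 are shown because they hold the DNA letters to which this machinery is known to bind, one for a gene of each dimer. They come from RefSeq on the build GRCm38.p6, run from 250 bases before to 50 bases after the annotated start, and are written 5′ to 3′ on the strand of the gene. Entries were found for 4 of the 7 genes, the fourth being H2-DMa with 2 start sites. Capitals mark the core of the X box, AGCAAC, and the core of the Y box, GATTGG, on either strand, so that CCAATC is a Y core read on the opposite strand. The promoters lie at chr17:34287774-34288073 on the reverse strand for H2-Aa, at chr17:34305617-34305916 on the forward strand for H2-Eb1, and at chr17:34152941-34153240 on the forward strand for H2-DMb1.
H2-Aa: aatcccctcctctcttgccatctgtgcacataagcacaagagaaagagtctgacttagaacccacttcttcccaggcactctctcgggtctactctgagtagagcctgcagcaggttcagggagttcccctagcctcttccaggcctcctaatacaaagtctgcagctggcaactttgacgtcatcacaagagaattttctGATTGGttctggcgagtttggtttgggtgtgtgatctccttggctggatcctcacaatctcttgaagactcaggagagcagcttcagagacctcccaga
H2-Eb1: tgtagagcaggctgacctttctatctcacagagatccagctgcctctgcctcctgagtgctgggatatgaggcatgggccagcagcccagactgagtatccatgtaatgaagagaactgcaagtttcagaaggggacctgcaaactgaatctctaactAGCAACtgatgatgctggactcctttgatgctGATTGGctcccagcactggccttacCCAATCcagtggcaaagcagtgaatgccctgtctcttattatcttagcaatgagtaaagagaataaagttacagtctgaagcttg
H2-DMb1: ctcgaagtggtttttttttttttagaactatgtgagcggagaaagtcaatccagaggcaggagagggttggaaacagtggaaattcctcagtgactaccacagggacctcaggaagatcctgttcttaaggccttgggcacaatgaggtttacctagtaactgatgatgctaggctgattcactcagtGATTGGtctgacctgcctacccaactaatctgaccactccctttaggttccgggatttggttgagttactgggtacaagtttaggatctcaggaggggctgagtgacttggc
A Y core began 49 bases before the start of H2-Aa, 62 bases before that of H2-DMb1 and 60 bases before that of H2-Eb1, and H2-Eb1 had a reverse Y core at 35 bases. The X core letters were present in H2-Eb1 alone of these genes, 92 bases before the start and 32 bases ahead of its Y core. Only exact letters were searched, so a gene without a match may still hold a variant of the box. Among 32817 promoters of 300 bases, 14.8% held an X core, 16.1% held a Y core, and 0.189% held an X core followed within 40 bases by a Y core. H2-Oa, H2-Ob and H2-Eb2, other genes of the class II region, were among the 56 genes with such a pair, and so were Kat2b and Cd68 of the lists described further on. H2-Eb1 and H2-DMb1 also shared the run aactgatgatgct, which 0.00914% of the promoters held, and which overlaps the end of the X core in H2-Eb1. Of the H2-DMa start sites, one had neither core and the other had a Y core 199 bases before the start. These matches describe letters and were not tested for binding.

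Libraries held between 25281955 and 33673552 expected counts, of which 0.00615% to 0.0210% fell on the 7 genes. Ncoa6, the deleted gene, had 1515 and 1405 normalized counts in fl/fl and 784 and 622 in Ncoa6-KO BMDMs in medium, and 1297 and 1173 against 563 and 526 after LPS + MSU, so the genotypes did not overlap and the labels held. A large part of the Ncoa6 counts thus remained in Ncoa6-KO BMDMs. The paper places the loxP sites around exon 7, so counts over the whole gene do not measure how complete the deletion was. Normalized counts were obtained by dividing by the effective library size and multiplying by its mean, and values of 2 libraries are given in the order of their replicate numbers throughout. All 10 macrophage markers were present, with sums of 268233 to 592130 normalized counts per library. The sums of 10 markers each were 692 to 1394 for dendritic cells, 85.3 to 190 for B cells, 26.6 to 112 for T and NK cells and 445 to 992 for neutrophils. Of the dendritic cell list 8 of 10 genes were tested, of which Itgax (up to 1012 counts in a library), Clec10a (370), Xcr1 (122), Clec9a (50.9), Batf3 (49) and Ccr7 (22) had the most, while Flt3, Cd209a and Siglech had at most 4, 2 and 1. Of the B cell list 6 of 10 genes were tested, with up to 185 counts of Cd22 and 66 of Cd79b, while Ms4a1 had at most 2 and Blk had 0. Of the T and NK cell list only Cd4 was tested, with up to 147 counts in a library. No other gene of that list had over 3. These are bulk libraries, in which fewer cells that express a gene and less RNA of it per cell cannot be told apart.

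Levels between genes were compared per length, as FPKM, which divides counts by the effective library size (the library total times its TMM scaling factor) and by the length of the union of each gene's exons. In fl/fl BMDMs in medium, Cd74 stood at 15.6 ± 3.59 FPKM (SD, n = 2) and H2-DMb1 at 14.0 ± 0.997 FPKM, and these ranges overlapped. H2-DMa followed at 2.16 ± 0.308 FPKM and overlapped with H2-Ab1 at 1.97 ± 0.00199 FPKM. H2-Eb1 stood at 1.64 ± 0.160 FPKM, H2-Aa at 1.25 ± 0.236 FPKM and Ciita last at 0.0990 ± 0.0269 FPKM. After LPS + MSU, Cd74 at 56.7 ± 6.72 FPKM was clear of H2-DMb1 at 17.4 ± 0.549 FPKM, and H2-Ab1 at 9.77 ± 0.348 FPKM had moved past H2-DMa at 3.91 ± 0.200 FPKM. H2-Eb1 at 3.24 ± 0.716 FPKM and H2-Aa at 2.72 ± 0.301 FPKM overlapped, and Ciita was again last at 0.681 ± 0.137 FPKM. In Ncoa6-KO BMDMs in medium, H2-DMb1 at 13.7 ± 0.994 FPKM stood above Cd74 at 9.26 ± 2.60 FPKM. H2-DMa at 1.68 ± 0.299 FPKM, H2-Ab1 at 1.57 ± 0.462 FPKM, H2-Eb1 at 1.37 ± 0.438 FPKM and H2-Aa at 1.10 ± 0.524 FPKM each overlapped with the next, and Ciita stood at 0.0704 ± 0.0375 FPKM. In Ncoa6-KO BMDMs after LPS + MSU the order was Cd74 at 49.6 ± 29.2 FPKM, H2-DMb1 at 20.8 ± 5.49 FPKM and H2-Ab1 at 12.1 ± 4.48 FPKM, then H2-Eb1, H2-DMa and H2-Aa between 3.69 and 4.29 FPKM with overlapping ranges, and Ciita at 1.18 ± 0.548 FPKM. Cd74 and H2-DMb1 were thus the most abundant and Ciita the least abundant in these 4 groups. With the longest transcript as the length in place of the exon union, H2-Ab1 ranked above H2-DMa in medium and above H2-DMb1 in Ncoa6-KO BMDMs after LPS + MSU.

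**Figure D1:**
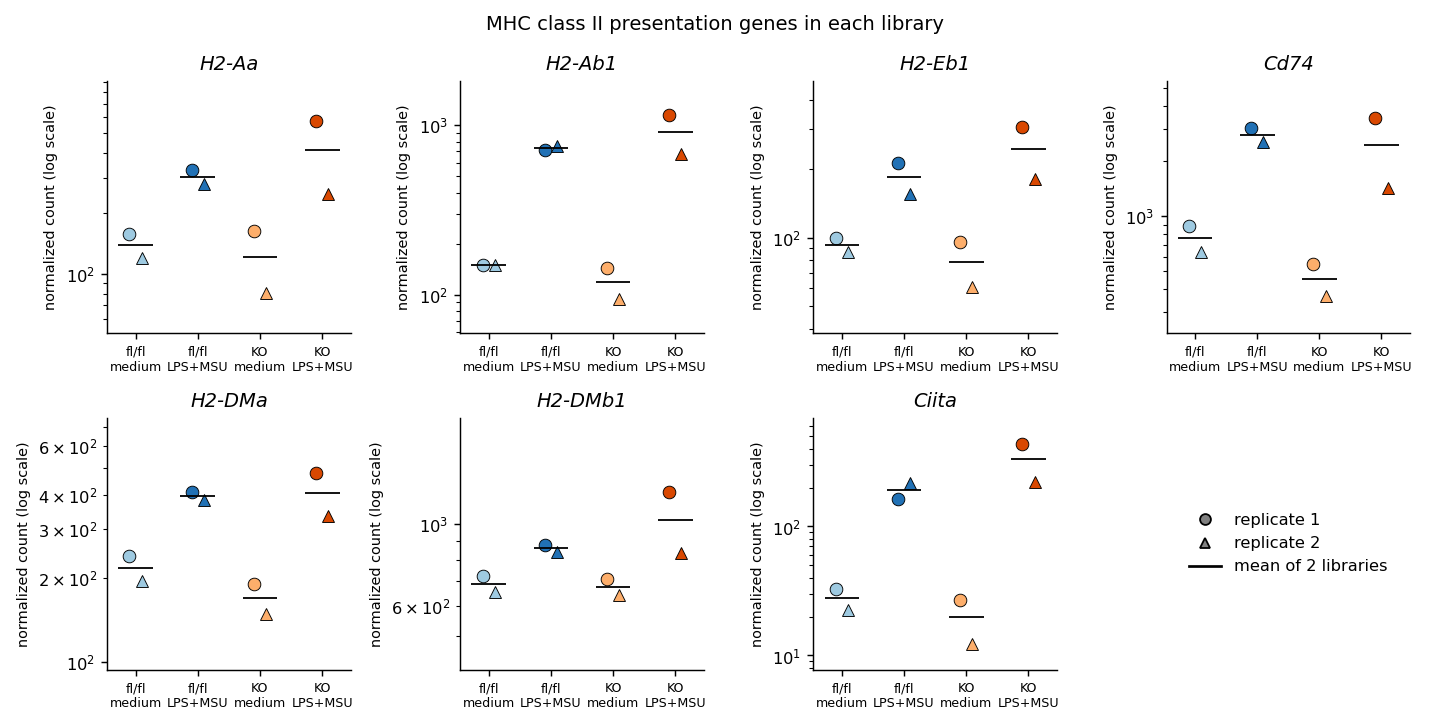
Normalized counts (log scale) of the 7 class II presentation genes in each of the 8 libraries, by genotype and culture condition, where KO stands for Ncoa6-KO; circles are replicate 1, triangles replicate 2 and lines the mean of the 2 libraries. LPS + MSU libraries lie above the medium libraries of their genotype for each gene, and in both Ncoa6-KO groups replicate 1 lies above replicate 2 for each gene.

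The first comparison addressed what LPS + MSU did to the pathway in fl/fl BMDMs, and it raised 6 of the 7 genes, among 17625 tested genes of which 24.7% rose. The fold change was largest for Ciita and smallest for H2-DMb1, which did not pass. Ciita (chr16:10480059-10528418, forward strand) had 33.0 and 22.4 normalized counts in medium and 163 and 218 after LPS + MSU. Both stimulated libraries were far above both medium libraries, a log2 fold change of 2.77 (SE 0.389, adjusted p = 9.57e-05, edgeR quasi-likelihood test with Benjamini-Hochberg adjustment, as for all adjusted p-values unless stated otherwise), or 6.80-fold.

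Of the class II chains, H2-Ab1 (chr17:34257689-34269419, forward strand) had 149 and 149 normalized counts in medium and 718 and 755 after LPS + MSU. The libraries of each condition lay close together, and the log2 fold change was 2.31 (SE 0.242, adjusted p = 9.00e-06), or 4.95-fold. Its partner H2-Aa (chr17:34282744-34287823, reverse strand) had 158 and 120 normalized counts in medium and 327 and 280 after LPS + MSU. The conditions did not overlap, with a log2 fold change of 1.12 (SE 0.372, adjusted p = 0.0242). H2-Eb1 (chr17:34305867-34316674, forward strand) had 99.8 and 86.9 normalized counts in medium and 213 and 156 after LPS + MSU. This gave a log2 fold change of 0.98 (SE 0.285, adjusted p = 0.0126), again without overlap. H2-Ea, the I-E alpha chain gene (annotated as H2-Ea-ps), had 0 counts in all 8 libraries, so a beta chain gene of I-E rose in cells without detected transcripts of its partner.

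The invariant chain gene Cd74 (chr18:60803848-60812652, forward strand) had 891 and 641 normalized counts in medium and 3029 and 2560 after LPS + MSU, a log2 fold change of 1.87 (SE 0.337, adjusted p = 6.18e-04) with no overlap. H2-DMa (chr17:34119541-34139101, forward strand) had 240 and 196 normalized counts in medium and 410 and 381 after LPS + MSU. It rose in both stimulated libraries, with a log2 fold change of 0.86 (SE 0.188, adjusted p = 0.00237). H2-DMb1 (chr17:34153072-34160230, forward strand) had 725 and 655 normalized counts in medium and 877 and 839 after LPS + MSU. Although its conditions did not overlap, the log2 fold change of 0.31 (SE 0.153, adjusted p = 0.107) did not pass the test, and its 95% interval ran from -0.03 to 0.65. The median over the 7 genes was 1.12, beside -0.12 over all genes tested.

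Limits of these values concern scaling and single libraries. The TMM factors were 0.766 to 0.829 in stimulated and 1.23 to 1.29 in medium libraries, and scaling by library size alone lowered the median of all genes by 0.66 on the log2 scale. Under it Ciita, H2-Ab1 and Cd74 still rose, with log2 fold changes of 2.10, 1.64 and 1.19, whereas H2-Aa at 0.45 (adjusted p = 0.286), H2-Eb1 at 0.31 (adjusted p = 0.341) and H2-DMa at 0.19 (adjusted p = 0.380) did not pass and H2-DMb1 turned to -0.36 (adjusted p = 0.0452). The call of H2-DMb1 was gained with DESeq2 (0.43, adjusted p = 0.0392), among others. The call of H2-Aa was lost without the first fl/fl library after LPS + MSU (1.05, adjusted p = 0.091) and without the first or second one with medium (1.33, adjusted p = 0.0532, and 0.95, adjusted p = 0.135). That of H2-Eb1 was lost without the first fl/fl library after LPS + MSU (0.78, adjusted p = 0.0908) and without the second one with medium (0.89, adjusted p = 0.0768). Without the first or second Ncoa6-KO library after LPS + MSU, H2-DMb1 passed in fl/fl BMDMs (0.36, adjusted p = 0.0132 and 0.0129).

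The same stimulus in Ncoa6-KO BMDMs raised 7 of 7 genes, where 25.2% of all tested genes rose. Ciita went from 27.1 and 12.3 to 439 and 222 normalized counts, a log2 fold change of 4.02 (SE 0.395, adjusted p = 5.76e-06). The second medium library had 14 counts of Ciita before scaling. H2-Ab1 went from 143 and 94.0 to 1151 and 674 normalized counts, a log2 fold change of 2.93 (SE 0.246, adjusted p = 1.56e-06). Cd74 went from 546 and 365 to 3462 and 1427, a log2 fold change of 2.42 (SE 0.347, adjusted p = 1.22e-04). The stimulated libraries of both genes were clear of the medium libraries but stood apart from each other.
H2-Aa went from 163 and 80.8 to 572 and 250 normalized counts, a log2 fold change of 1.74 (SE 0.369, adjusted p = 0.00202). H2-Eb1 went from 95.9 and 60.6 to 307 and 182, a log2 fold change of 1.63 (SE 0.283, adjusted p = 5.08e-04). As in fl/fl BMDMs, these chains rose less than H2-Ab1. H2-DMa went from 191 and 148 to 477 and 334 normalized counts, a log2 fold change of 1.25 (SE 0.191, adjusted p = 1.89e-04). H2-DMb1 went from 711 and 642 to 1215 and 832, a log2 fold change of 0.60 (SE 0.152, adjusted p = 0.00629). The order of the log2 fold changes, Ciita, H2-Ab1, Cd74, H2-Aa, H2-Eb1, H2-DMa and H2-DMb1, was that of fl/fl BMDMs, and no library entered both responses. The 95% intervals of neighbours in this order overlapped, so single steps of it are not resolved. The median over the 7 genes was 1.74, beside -0.07 over all genes tested. H2-DMb1 was 0.29 (adjusted p = 0.0872) without the first Ncoa6-KO library after LPS + MSU and -0.04 (adjusted p = 0.825) with library size alone, and it was the only one of the 7 calls lost under the alternatives tried.

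**Figure D2:**
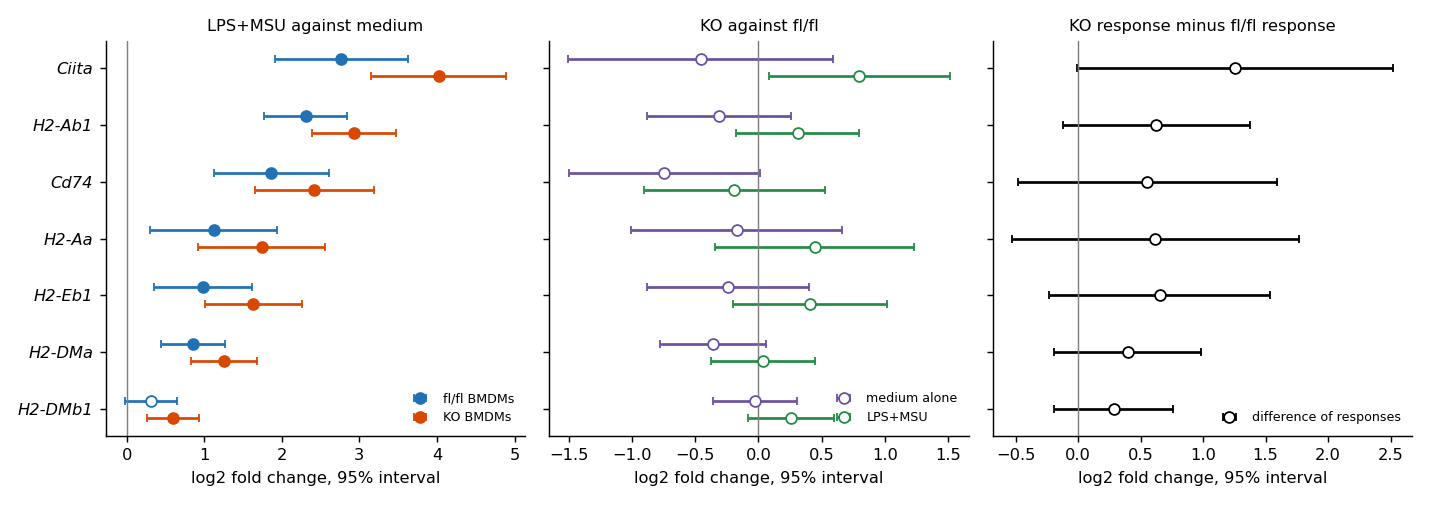
Log2 fold changes (points) with 95% intervals (bars) of the 7 genes for LPS + MSU against medium in each genotype, for Ncoa6-KO against fl/fl in each culture condition, and for the difference between the genotypes' responses. Filled points passed an adjusted p of 0.05 and open points did not: 6 and 7 genes are filled in the stimulus comparisons and 0 in the others.

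The ratio of partner chains of a dimer differed between medium and stimulated libraries. The ratio of expected counts within a library is free of the scaling between libraries, and it was examined after the values were seen. H2-Ab1 over H2-Aa was 0.943 and 1.24 in fl/fl and 0.877 and 1.16 in Ncoa6-KO BMDMs in medium. After LPS + MSU it was 2.19 and 2.7 in fl/fl and 2.01 and 2.69 in Ncoa6-KO BMDMs, so that each of the 4 stimulated libraries lay above each of the 4 medium libraries. The mean log2 ratio went from 0.06 ± 0.237 (SD, n = 4) to 1.25 ± 0.214 (SD, n = 4), a difference of 1.19 or 2.28-fold (exact permutation test over libraries of both genotypes, two-sided p = 0.0286, also adjusted over the 2 ratios tested, the smallest this design allows). With libraries exchanged only within a genotype the smallest possible p is 0.0556, which both ratios reached, so neither passes 0.05 in that form of the exact permutation test. The difference was 1.17 in fl/fl and 1.20 in Ncoa6-KO BMDMs. For the DM dimer the ratio went the other way with regard to the beta chain. H2-DMb1 over H2-DMa was 3.02 and 3.34 in fl/fl and 3.73 and 4.32 in Ncoa6-KO BMDMs in medium, and 2.14 and 2.19, and 2.55 and 2.49, after LPS + MSU. The mean log2 ratio went from 1.84 ± 0.222 (SD, n = 4) to 1.22 ± 0.128 (SD, n = 4), a difference of -0.61 and again without overlap (exact permutation test, two-sided p = 0.0286, also adjusted over the 2 ratios). H2-DMa shares 360 exonic bases with Brd2, which lies on the opposite strand, and H2-DMb1 has a near copy, H2-DMb2, with which reads may be split. Brd2 rose from 5573 and 5457 to 16245 and 17088 normalized counts in fl/fl BMDMs, a log2 fold change of 1.60 (adjusted p = 1.29e-07). The strand setting of the counting was not given in the sources used here, and its part in the H2-DMa values was not tested.

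**Figure D3:**
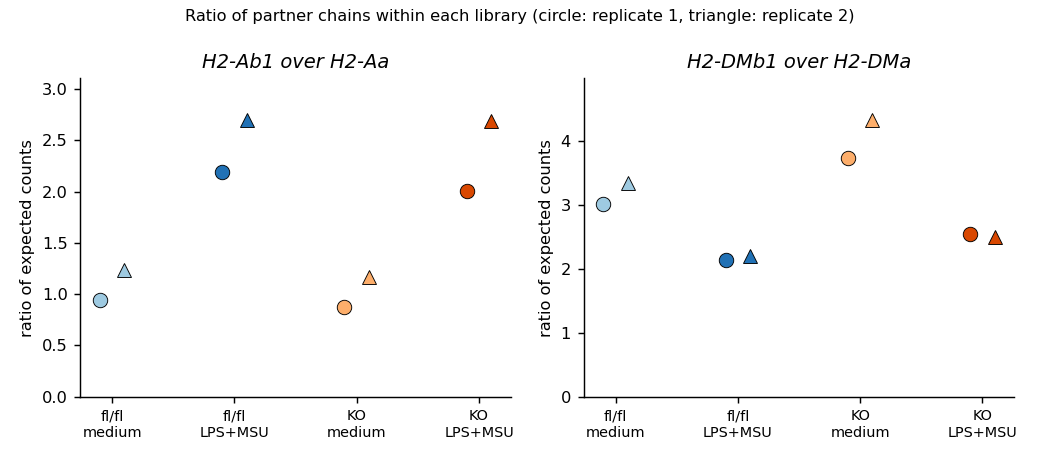
Ratios of expected counts of H2-Ab1 over H2-Aa and of H2-DMb1 over H2-DMa in each library, by genotype and culture condition, on axes that start at 0; circles are replicate 1 and triangles replicate 2. The 4 LPS + MSU libraries lie between 2.01 and 2.7 for the first ratio, above the medium libraries, and between 2.14 and 2.55 for the second, below the medium libraries.

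Between genotypes in medium, 0 of the 7 genes passed the test, where 1.88% of all tested genes did. All 7 log2 fold changes of Ncoa6-KO against fl/fl were below 0, with a median of -0.31 beside -0.03 over all genes tested. Cd74 had the largest difference, with 891 and 641 normalized counts in fl/fl and 546 and 365 in Ncoa6-KO BMDMs. The genotypes did not overlap, and the log2 fold change was -0.74 (SE 0.342, unadjusted p = 0.0525, adjusted p = 0.396 in edgeR), with a 95% interval from -1.50 to 0.01. Ciita was at -0.46 (adjusted p = 0.775), H2-DMa at -0.36 (adjusted p = 0.489) and H2-Ab1 at -0.31 (adjusted p = 0.704). H2-Eb1 was at -0.24 (adjusted p = 0.820), H2-Aa at -0.17 (adjusted p = 0.917) and H2-DMb1 at -0.03 (adjusted p = 0.976), and H2-DMb1 turned to 0.02 with upper-quartile scaling and 0.006 with library size alone, and lay above 0 without any one of 6 libraries. The sign of H2-Aa depended on single libraries, with 0.04 without the first fl/fl library and 0.23 without the second Ncoa6-KO library with medium, and so did that of H2-Eb1, with 0.04 without the second Ncoa6-KO library. Without the filter on low counts, Cd74 passed with the same size of change (-0.75, adjusted p = 2.90e-08) but a smaller SE of 0.118. That setting raised the calls over all genes from 331 to 1152. With the replicate number as a block across all groups Cd74 also passed (-0.76, adjusted p = 0.0192). It did not pass with DESeq2 (adjusted p = 0.726), limma-voom (adjusted p = 0.397) or filterByExpr (adjusted p = 0.392).

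After LPS + MSU, 0 of the 7 genes passed between genotypes, where 3.59% of all tested genes did, and the signs mostly turned. Ciita had 163 and 218 normalized counts in fl/fl and 439 and 222 in Ncoa6-KO BMDMs, so that the lower Ncoa6-KO library stood just above the higher fl/fl library. Its log2 fold change was 0.80 (SE 0.324, unadjusted p = 0.0318, adjusted p = 0.230 in edgeR), with a 95% interval from 0.08 to 1.51. Ciita passed without the filter on low counts (SE 0.191, adjusted p = 9.66e-04), a setting that raised the calls over all genes from 632 to 1611. It did not pass with DESeq2 (adjusted p = 0.247) or limma-voom (adjusted p = 0.270). H2-Aa was at 0.44 (adjusted p = 0.587), H2-Eb1 at 0.41 (adjusted p = 0.498), H2-Ab1 at 0.31 (adjusted p = 0.522), H2-DMb1 at 0.26 (adjusted p = 0.439) and H2-DMa at 0.04 (adjusted p = 0.95). The ranges of these 5 genes overlapped between genotypes. Cd74 alone was below 0, at -0.19 (adjusted p = 0.825), with 3029 and 2560 normalized counts in fl/fl and 3462 and 1427 in Ncoa6-KO BMDMs. The median over the 7 genes was 0.31, beside 0.0004 over all genes tested.

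The 2 Ncoa6-KO libraries after LPS + MSU stood apart for this pathway. Replicate 1 was higher than replicate 2 for 7 of 7 genes, by a median of 0.77 on the log2 scale, whereas the median over 11219 genes with higher counts was -0.007. The ratio of the libraries was 2.43 for Cd74, 2.29 for H2-Aa and 1.97 for Ciita. Without replicate 1 the log2 fold changes between genotypes were -0.29 for H2-Aa, -0.26 for H2-DMa, -0.14 for H2-Ab1, -0.06 for H2-DMb1, -0.04 for H2-Eb1 and -0.99 (adjusted p = 0.0689) for Cd74, and only Ciita stayed above 0, at 0.21 (adjusted p = 0.813). Without replicate 2 all 7 were above 0, from 0.27 for H2-DMa to 1.20 for Ciita (adjusted p = 0.144). H2-DMa was also at -0.02 without the second fl/fl library after LPS + MSU. The dendritic cell sum was 772 in replicate 1 and 949 in replicate 2, and its part in this difference was not tested. In medium, replicate 1 of the Ncoa6-KO group was likewise higher for 7 of 7 genes, by a median of 0.60. In fl/fl BMDMs replicate 1 was higher for 6 of 7 genes in medium and for 5 of 7 after LPS + MSU, by medians of 0.29 and 0.10.

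**Figure D4:**
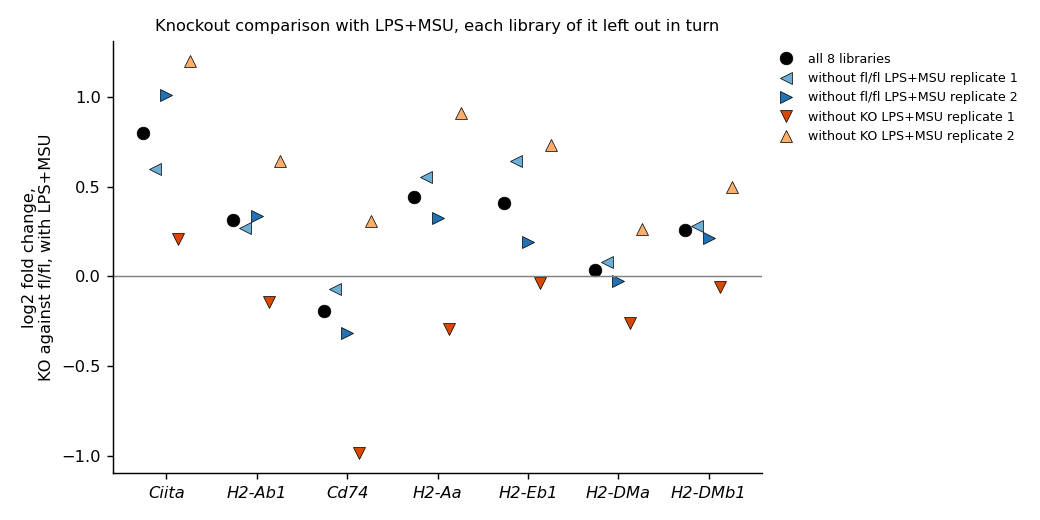
Log2 fold change of Ncoa6-KO against fl/fl BMDMs after LPS + MSU for each of the 7 genes, with all 8 libraries (black circles) and with each library of this comparison left out in turn (triangles; KO stands for Ncoa6-KO). Without Ncoa6-KO replicate 1, 6 of the 7 genes lie below 0, and without replicate 2 all 7 lie above 0.

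Sums of the macrophage, dendritic cell, B cell, and T and NK cell markers were lower in Ncoa6-KO BMDMs in both conditions. Those of the neutrophil markers overlapped between genotypes. Single genes held most of the dendritic cell, B cell, and T and NK cell sums. Over all libraries Itgax had 5508 expected counts and Clec10a, the next of its list, 1394. Cd22 had 871 and the next, Cd79b, 208, while Cd4 had 501 and the next, Cd2, 6. In medium the macrophage sum was 410758 to 477589 normalized counts in fl/fl and 268233 to 309471 in Ncoa6-KO BMDMs, and the dendritic cell sum 1086 to 1099 against 692 to 746. After LPS + MSU they were 523716 to 592130 against 380058 to 408085, and 1374 to 1394 against 772 to 949. In both conditions Lyz2, the gene whose locus carries Cre in Ncoa6-KO mice, was a large part of the macrophage sum, with 209893 to 272098 against 111994 to 127555 normalized counts in medium and 217335 to 270329 against 123265 to 129385 after LPS + MSU. Without Lyz2 the sum of the other 9 markers was 200865 to 205492 against 156240 to 181916 in medium and 306381 to 321801 against 256793 to 278701 after LPS + MSU. Of the 10 macrophage markers 3 were lower in medium and 4 after LPS + MSU, and 7 and 6 did not pass. Over all tested genes, 1.88% and 3.59% passed. Of 8 dendritic cell markers tested, 0 passed in medium and 1 was lower after LPS + MSU. No B cell, T and NK cell or neutrophil marker tested passed between genotypes in either condition. The part of these markers in the values of the class II genes was not tested.

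Whether the response itself differed between genotypes was tested by the interaction, in which 0 of the 7 genes and 0% of all tested genes passed. In edgeR the unadjusted p was under 0.05 for 1045 genes and for 0 of the 7, and DESeq2 called 43 genes, none of these 7. All 7 differences, Ncoa6-KO minus fl/fl response, were above 0, with a median of 0.62 beside 0.06 over all genes tested. Ciita had the largest difference, 1.26 (SE 0.574, unadjusted p = 0.0516, adjusted p = 0.841 in edgeR), with a 95% interval from -0.01 to 2.52. H2-Eb1 differed by 0.65 (interval -0.23 to 1.54), H2-Ab1 by 0.62 (-0.13 to 1.37), H2-Aa by 0.62 (-0.53 to 1.77), Cd74 by 0.55 (-0.48 to 1.59), H2-DMa by 0.40 (-0.19 to 0.98) and H2-DMb1 by 0.29 (-0.19 to 0.76). Without the first Ncoa6-KO library after LPS + MSU, the difference turned to -0.28 for Cd74, -0.16 for H2-Aa and -0.07 for H2-DMb1 and fell to 0.63 for Ciita, 0.17 for H2-Eb1, 0.13 for H2-Ab1 and 0.06 for H2-DMa. Without the filter on low counts Ciita passed (adjusted p = 0.0237), as did 269 genes in all. With the replicate number as a block within each genotype, Ciita (1.31, adjusted p = 0.0289) and H2-Ab1 (0.63, adjusted p = 0.0247) passed in edgeR, and 444 genes in all. The labels do not say that a replicate number marks one mouse, so the block was not used in the main fit. Ciita did not pass with DESeq2 (adjusted p = 0.860) or limma-voom (adjusted p = 0.916).

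Ciita shares 329 exonic bases with Dexi, a gene on the opposite strand. Dexi had 164 and 153 normalized counts in fl/fl and 158 and 154 in Ncoa6-KO BMDMs in medium, and 204 and 260 against 420 and 355 after LPS + MSU. The genotypes overlapped in medium and did not overlap after LPS + MSU, where the log2 fold change was 0.74 (SE 0.155, adjusted p = 0.0284). It rose after LPS + MSU by 0.55 (adjusted p = 0.0122) in fl/fl and 1.31 (adjusted p = 2.39e-05) in Ncoa6-KO BMDMs. The genotype call of Dexi was lost without either Ncoa6-KO library after LPS + MSU (0.60, adjusted p = 0.139, and 0.85, adjusted p = 0.103), without the first fl/fl library with it (0.56, adjusted p = 0.250), without either fl/fl library with medium (both 0.74, adjusted p = 0.0567 and 0.0558), and in a fit of only the 4 libraries compared (adjusted p = 0.0624). The call of its rise in fl/fl BMDMs was lost without the second library after LPS + MSU (0.41, adjusted p = 0.0921) or with medium (0.50, adjusted p = 0.0699). Whether counts of either gene hold reads of the other was not tested.

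Other genes of the pathway were followed in 6 lists of 56 genes, of which 54 were tested. LPS + MSU raised 31 and lowered 7 of them in fl/fl BMDMs, and raised 32 and lowered 6 in Ncoa6-KO BMDMs. Over all genes tested, 24.7% rose and 30.5% fell in fl/fl and 25.2% rose and 27.9% fell in Ncoa6-KO BMDMs, against which the counts of each list are to be read. Between genotypes 1 was lower in medium, and 1 was higher and 2 were lower after LPS + MSU.
Of 5 other genes of the class II region, H2-Ea had no counts, H2-Eb2, a second I-E beta chain gene, had at most 3 in a library, and 3 were tested. H2-DMb2, the near copy of H2-DMb1, had 21.0 and 15.5 normalized counts in medium and 6.93 and 8.26 after LPS + MSU in fl/fl BMDMs. It fell by 1.26 on the log2 scale (adjusted p = 0.0474), a call that was lost under most alternatives, DESeq2 (adjusted p = 0.262) and the removal of any single library included. H2-Oa and H2-Ob, which encode the DO dimer that restrains DM, had 1.39 to 13.8 and 1.5 to 16.5 normalized counts and passed in neither genotype, except H2-Ob without the second fl/fl library with medium (3.24, adjusted p = 0.0117).

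Of 10 genes of endosomal processing, 4 rose and 6 did not pass in fl/fl BMDMs (24.7% of all genes tested rose), the median of their log2 fold changes being 0.28, and the counts were the same in Ncoa6-KO BMDMs, with a median of 0.31. Napsa, an aspartic protease, rose from 828 and 829 to 1480 and 1600 normalized counts in fl/fl and from 1028 and 973 to 1966 and 2050 in Ncoa6-KO BMDMs. Its level after LPS + MSU was higher in Ncoa6-KO BMDMs by a log2 fold change of 0.38 (SE 0.087, adjusted p = 0.0380), a call lost with DESeq2 (adjusted p = 0.0637), with its size factors in edgeR (adjusted p = 0.0538), with only the 4 libraries compared (adjusted p = 0.0807) and without any one of 6 libraries (adjusted p up to 0.307 without the first fl/fl library after LPS + MSU). Of 6 genes of turnover and trafficking, 3 rose and 1 fell in each genotype. Cd83, which shields class II molecules from the ubiquitin ligase MARCH1, rose from 705 and 602 to 10529 and 6806 normalized counts in fl/fl BMDMs, a log2 fold change of 3.73 (adjusted p = 4.98e-07), and by 3.52 (adjusted p = 7.97e-07) in Ncoa6-KO BMDMs. The gene of the ligase itself, Marchf1, rose from 600 and 464 to 1291 and 796 normalized counts, by 0.97 (adjusted p = 0.00248) in fl/fl and by 0.64 (adjusted p = 0.0290) in Ncoa6-KO BMDMs. With library size alone these were 0.30 and 0.003 and passed in neither, and the call in Ncoa6-KO BMDMs was also lost without the first library after LPS + MSU (0.44) and the second with medium (0.51). Cd82, a tetraspanin, rose by 0.96 (adjusted p = 6.96e-05) and 1.01 (adjusted p = 5.41e-05).

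Of 10 promoter factors, 2 rose and 4 fell in fl/fl and 3 rose and 4 fell in Ncoa6-KO BMDMs, with medians of 0.06 and 0.03, and these counts are near the shares over all genes tested. Rfxap and Rfxank, which encode subunits of the X box factor RFX, were among those that fell. Rfxap went from 260 and 234 to 79.0 and 102 normalized counts in fl/fl BMDMs, a log2 fold change of -1.45 (adjusted p = 2.83e-05), and by -1.11 (adjusted p = 1.89e-04) in Ncoa6-KO BMDMs. Rfxank went from 339 and 340 to 183 and 193, a log2 fold change of -0.85 (adjusted p = 1.37e-04), and by -0.62 (adjusted p = 0.00159) in Ncoa6-KO BMDMs. Kat2b, an acetyltransferase that binds CIITA and whose promoter held the X and Y pair, rose from 832 and 870 to 2714 and 2621, a log2 fold change of 1.65 (adjusted p = 4.77e-08), and by 1.51 (adjusted p = 9.88e-08) in Ncoa6-KO BMDMs.

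Of 15 regulators of Ciita, 13 rose and 1 fell in fl/fl and 12 rose and 1 fell in Ncoa6-KO BMDMs, with medians of 1.59 and 1.53. Bcl6, a repressor, rose from 945 and 1024 to 3426 and 2971 normalized counts in fl/fl and from 1017 and 1060 to 2160 and 2359 in Ncoa6-KO BMDMs. After LPS + MSU it was lower in Ncoa6-KO BMDMs, with a log2 fold change of -0.50 (SE 0.10, adjusted p = 0.0228). That call was lost with only the 4 libraries compared (adjusted p = 0.0588), without the first fl/fl library after LPS + MSU (-0.41, adjusted p = 0.201) and without the first or second Ncoa6-KO library after LPS + MSU (-0.46, adjusted p = 0.0986, and -0.57, adjusted p = 0.115). The genes of the interferon gamma route were picked out after their values were seen. Irf1 rose from 1973 and 1839 to 17053 and 17184 normalized counts in fl/fl BMDMs, by 3.17 (adjusted p = 1.52e-08), and by 3.92 (adjusted p = 4.33e-09) in Ncoa6-KO BMDMs. The receptor chain gene Ifngr1 fell, from 4478 and 4157 to 1621 and 1914 normalized counts in fl/fl BMDMs, a log2 fold change of -1.29 (adjusted p = 3.43e-06), and by -0.62 (adjusted p = 0.00101) in Ncoa6-KO BMDMs. Transcripts of Ifng, the cytokine itself, reached at most 1 count in any library. Nlrc5, which encodes the transactivator of MHC class I genes and is the counterpart of Ciita, went from 1412 and 1473 to 21403 and 23116 normalized counts in fl/fl BMDMs, by 3.95 (adjusted p = 3.07e-09), and by 4.23 (adjusted p = 2.11e-09) in Ncoa6-KO BMDMs.

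Of 10 costimulatory genes, 9 rose in fl/fl and 10 in Ncoa6-KO BMDMs, with medians of 4.34 and 4.35. Cd86, which encodes a ligand of CD28, had 230 and 229 normalized counts in fl/fl and 109 and 92.2 in Ncoa6-KO BMDMs in medium, and 4505 and 3710 against 2772 and 1682 after LPS + MSU. It was lower in Ncoa6-KO BMDMs under both conditions, with log2 fold changes of -1.18 (SE 0.239, adjusted p = 0.0363) and -0.88 (SE 0.188, adjusted p = 0.0306). The first call was lost with limma-voom (adjusted p = 0.101) and without any one of 6 libraries, with values from -1.31 to -1.07 and the highest adjusted p, 0.299, without the first fl/fl library with medium. The second was lost with only the 4 libraries compared (adjusted p = 0.0825), without either fl/fl library with medium (both -0.88, adjusted p = 0.0639 and 0.0626), without the first fl/fl library after LPS + MSU (-0.75, adjusted p = 0.235) and without the second Ncoa6-KO library with it (-0.57, adjusted p = 0.140).

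**Figure D5:**
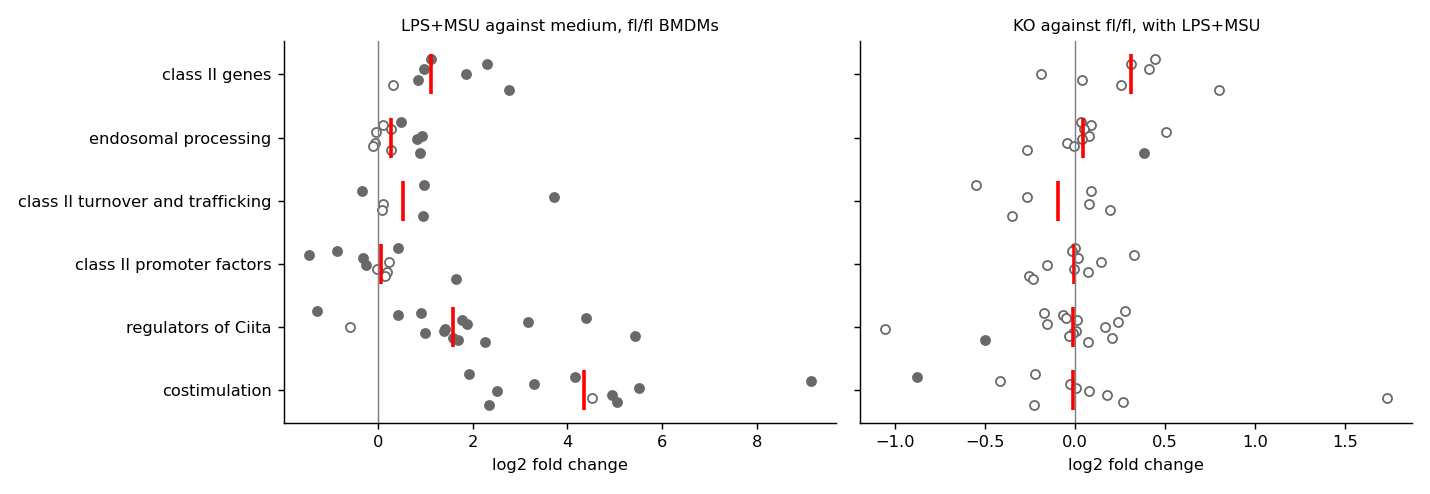
Log2 fold changes of the 7 class II genes and of 5 lists of pathway genes for LPS + MSU against medium in fl/fl BMDMs and for Ncoa6-KO (KO) against fl/fl after LPS + MSU; each point is a gene, filled where it passed an adjusted p of 0.05, and red lines are medians. In fl/fl BMDMs the medians run from 0.06 for promoter factors to 4.34 for costimulation, with 1.12 for the class II genes, and between genotypes only Napsa, Bcl6 and Cd86 are filled.

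Genes that followed the class II genes across the 8 libraries were sought by Pearson correlation of log2 values, among the 11212 genes whose mean over libraries reached 50 normalized counts. The mean profile of H2-Aa, H2-Ab1, H2-Eb1 and Cd74 was most like Tspyl1 (r = 0.992), Atp6v0c (0.986), Arl6ip5 (0.986), Hsd17b11 (0.985) and Fkbpl (0.985), where H2-DMa had 0.992, Ciita 0.979 and H2-DMb1 0.933. The profile of Ciita was most like Ly9 (r = 0.994), Rala (0.993), Foxred1 (0.992), Ninj1 (0.992) and Nsa2 (0.991), where H2-Ab1 had 0.992 and H2-Aa 0.951. The 8 libraries are 4 groups of 2, and the profile of the chains had an r over 0.95 with 348 genes and that of Ciita with 987. A high r was therefore common in these libraries and is given as a description over 8 points.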

How the data were processed

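The authors made stranded poly(A) libraries, used STAR 2.7.3a to align read pairs to GRCm38, and RSEM 1.3.3 gave the estimated gene counts, per the labels and the study's methods. The deposited expected counts, for 8 libraries in 4 groups of 2, are not normalized. Total counts, 25281955 to 33673552 per library, limit the precision of genes with few counts, such as Ciita in medium. The strand setting of RSEM and the version of DESeq2 used by the authors were not given in the sources used here.

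Expected counts were rounded, genes with a sum under 10 were left out, and the 4 groups were fitted together in edgeR 4.0.16 (R 4.3.3) with TMM scaling and a quasi-likelihood test with 4 residual degrees of freedom. P-values were adjusted over 17625 genes by the Benjamini-Hochberg method and called under 0.05, since an exact permutation of 2 against 2 libraries cannot give a p below 0.333. FPKM used effective library sizes and exon lengths of a GENCODE annotation of GRCm38. Positions are from the same annotation.

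Named beside the 7 genes were the genes of each list called between genotypes, or otherwise the 3 with the smallest p in fl/fl BMDMs, and the 5 most correlated genes. Outside this rule, Irf1, Ifngr1 and Ifng were added after their values were seen. Ncoa6 was the check of the labels, Nlrc5 was the class I counterpart, and Dexi and Brd2 overlap members. The members and lists were chosen with earlier results of these data known. Alternatives were DESeq2 1.42.0, its size factors, upper-quartile scaling, library size alone, filterByExpr, no filter, limma-voom (limma 3.58.1) on unrounded counts, a replicate block, only the 4 libraries compared, a log2 fold change of at least 1, transcript length, and each library left out in turn, which leaves a group of 1 library assumed to vary like the others.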

Additional observations from a re-analysis of the deposited data

How the results depend on the processing

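The counts of called genes after LPS + MSU were 6 in fl/fl and 7 in Ncoa6-KO BMDMs, and 4 to 7 and 6 to 7 with a library left out. With library size alone 4 were called in fl/fl BMDMs, 1 of them lower. With a log2 fold change of at least 1 required as well, 4 were called in fl/fl BMDMs, without H2-Eb1 and H2-DMa, and 6 in Ncoa6-KO BMDMs, without H2-DMb1. Between genotypes 0 of the 7 were called with any library left out. Without the filter on low counts 1 was called in medium (Cd74), 1 after LPS + MSU (Ciita) and 1 in the interaction (Ciita). The labels number libraries 1 and 2 in each group without saying that a number marks one mouse. With the replicate number as a block across all groups, 1 gene was called between genotypes in medium (Cd74, -0.76, adjusted p = 0.0192), and with the block within each genotype 2 were called in the interaction (H2-Ab1, 0.63, adjusted p = 0.0247, and Ciita, 1.31, adjusted p = 0.0289), both from edgeR, while 7 were called in either response. The correlation of replicate differences was 0.283 between the fl/fl groups, 0.353 between the Ncoa6-KO groups and 0.042 to 0.193 between genotypes.

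Reversed values with other scaling were those of H2-DMb1 with library size alone (-0.36 in the fl/fl and -0.039 in the Ncoa6-KO response, 0.0061 between genotypes with medium), H2-DMb1 between genotypes with medium under upper-quartile scaling (0.019), H2-Ob in the Ncoa6-KO response with library size alone (-0.20), and Dexi with library size alone in the fl/fl response (-0.12) and between genotypes with medium (0.011, and 0.024 with upper-quartile scaling). As single libraries were left out, the genotype difference with medium ran from -0.79 to 0.23 for H2-Aa, from -0.62 to 0.038 for H2-Eb1, from -0.10 to 0.047 for H2-DMb1 and from -0.072 to 0.030 for Dexi. With LPS + MSU it ran from -0.29 to 0.91 for H2-Aa, from -0.14 to 0.64 for H2-Ab1, from -0.038 to 0.73 for H2-Eb1, from -0.99 to 0.31 for Cd74, from -0.26 to 0.27 for H2-DMa and from -0.061 to 0.50 for H2-DMb1. The difference between responses ran from -0.16 to 1.23 for H2-Aa, from -0.28 to 1.01 for Cd74 and from -0.070 to 0.490 for H2-DMb1. H2-Oa in the fl/fl response ran from -1.28 to 2.25. The ratio differences ran from 1.10 to 1.27 for H2-Ab1 over H2-Aa and from -0.69 to -0.52 for H2-DMb1 over H2-DMa, and their values of 1.19 and -0.61 did not pass with libraries exchanged only within a genotype (exact permutation test, p = 0.0556).

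Over all genes, 331 and 632 were called between genotypes in medium and after LPS + MSU. Without the filter these were 1152 and 1611, with the block 1023 and 1532, with only the 4 libraries compared 347 for LPS + MSU, and with a library left out as few as 22 and 49 (without the first fl/fl library with medium and after LPS + MSU). The interaction gave 0 genes, 43 with DESeq2, 269 without the filter, 86 and 444 with the blocks, and 0 to 16 with a library left out. DESeq2's size factors raised the median of all genes by 0.11 in the fl/fl response, and library size alone lowered it by 0.66 and 0.63. The share of calls that were higher was 44.8% and 47.5% in the responses and 20.6% and 21.4% with library size alone. Between genotypes it was 30.5% with medium, against 41.3% with upper-quartile scaling, and 54.6% after LPS + MSU, against 68.8% with library size alone. The depth limits Ciita in medium (14 to 44 counts), H2-Oa and H2-Ob.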
